A study of Mus musculus with 20 samples.

Results

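The genes described here are 49 genes of DNA replication and S phase, chosen by name from the standard machinery of chromosome copying: the helicase and its loaders, polymerases, the sliding clamp and its loader, single-strand binding proteins, nucleotide synthesis enzymes, chromatin copying factors, and the E2F and cyclin E genes that control entry into S phase. All 49 had a row in each of the 4 expression tables, which together list 14700 genes. The question was whether their RNA changed when mouse cortical neuron cultures were deprived of oxygen and glucose, and whether loss of the circular RNA ciRS-7 altered that.

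Cells were primary cortical neurons from E15 mouse embryos of strain C57BL/6N-Cdr1asem1Nikr, grown for 7 days in Neurobasal medium with B27. Cultures were wild type (WT) or knocked out for ciRS-7 (KO), a circular RNA from the Cdr1as locus. Normoxia cultures (N) received medium with 25 mM glucose and pyruvate, and cultures under oxygen and glucose deprivation (OGD) received the same base medium without added glucose and stood in a chamber at 1% O2 for 12 h. The 4 groups, N_WT, OGD_WT, N_KO and OGD_KO, held 5 libraries each, and every culture label (WT 1 to 5, KO 1 to 5) gave 1 normoxia and 1 OGD library. The knockout is a single allele, and the labels give the WT cultures the same strain name. Total RNA was sequenced, so a gene's value is an average over all cells in the dish, and fewer cells of a type and less RNA per cell cannot be told apart.

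Replication begins in G1, when CDC6 and CDT1 load the MCM2 to MCM7 ring onto origins, a step called licensing. In S phase CDC45 and the GINS complex turn that ring into an active helicase, DNA polymerase alpha with primase starts each strand, and the delta and epsilon polymerases extend it on the PCNA clamp. E2F transcription factors switch these genes on together as cells leave G1, and cyclin E with CDK2 drives that switch. Neurons have left the cell cycle, while the progenitors and glia of a young cortical culture can still divide.

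Libraries held 7071506 to 13168705 reads in N_WT, 9217020 to 16658619 in OGD_WT, 7580741 to 14762866 in N_KO and 7494945 to 14523454 in OGD_KO. Values are log2 CPM, the log2 of reads scaled to library size, and because a small constant was added before the logarithm they understate changes of low genes. The row named Cdr1as held 545 to 1912 reads in the WT libraries and 2 to 16 in the KO libraries, so every library matched its genotype label in this row, which does not tell circular from linear RNA. The mitochondrial ribosomal RNA mt-Rnr2 took 10.1% to 16.4% of reads in normoxia and 13.8% to 32.0% under OGD. Of the members, Gmnn had the fewest reads (4 to 31 per library) and Dnmt1 the most (859 to 1928).

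Promoter letters were examined first, since E2F control is what these genes are known to share. RefSeq promoter windows on GRCm38.p6, from 250 bases before to 50 bases after the start site, were matched by symbol for 40 members (48 windows). No window was matched for Mcm4, Gmnn, Gins1, Gins2, Gins4, Prim2, Pole, Rfc2 and Ccne2. The letters TTTCCCGC, TTTGGCGC, TTTCGCGC or TTTGCCGC, which are versions of the E2F site, were searched on both strands. They stood in 16 of 48 member windows (33.3%), against 2.26% of all 32851 windows of the same length. The CCAAT box letters CCAAT stood in 62.5% of member windows and 37.4% of all windows. The letters of the cell cycle homology region, TTTGAA or TTCGAA, known from genes of G2 and mitosis, stood in 18.8% of member windows and 19.2% of all windows. In Mcm5 and Mcm6, 2 of the E2F matches overlap each other.

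Stretches upstream of 8 start sites are shown because they set genes that rose under OGD beside genes with like letters that did not. Capitals mark the E2F letters, and each is read 5′ to 3′ on the gene's own strand. The first 4 belong to genes called higher under OGD in both genotypes. They are Mcm5 (chr8:75109330-75109409, plus strand), with a match on each strand sharing bases, Pola1 (chrX:93632240-93632319, minus strand), Uhrf1 (chr17:56304102-56304181, plus strand) and E2f7 (chr10:110745215-110745294, plus strand).
Mcm5: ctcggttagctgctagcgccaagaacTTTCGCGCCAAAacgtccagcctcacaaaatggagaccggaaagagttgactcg
Pola1: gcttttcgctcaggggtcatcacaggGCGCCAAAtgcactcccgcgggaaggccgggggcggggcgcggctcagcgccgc
Uhrf1: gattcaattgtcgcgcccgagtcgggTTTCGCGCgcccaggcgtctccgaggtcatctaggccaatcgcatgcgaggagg
E2f7: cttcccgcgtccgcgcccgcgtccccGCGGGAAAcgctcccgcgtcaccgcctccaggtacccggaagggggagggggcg

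The other stretches belong to Mcm6 (chr1:128359762-128359841, minus strand), Cdc6 (chr11:98907987-98908066, plus strand) and Gins3 (chr8:95633479-95633558, plus strand), none of which was called in either genotype, and to Brca2 (chr5:150522427-150522506, plus strand), which was called lower in WT.
Mcm6: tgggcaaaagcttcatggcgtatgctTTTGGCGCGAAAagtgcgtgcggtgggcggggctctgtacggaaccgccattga
Cdc6: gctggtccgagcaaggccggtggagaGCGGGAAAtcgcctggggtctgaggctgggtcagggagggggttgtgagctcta
Gins3: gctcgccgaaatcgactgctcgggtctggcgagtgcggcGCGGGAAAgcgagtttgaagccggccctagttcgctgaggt
Brca2: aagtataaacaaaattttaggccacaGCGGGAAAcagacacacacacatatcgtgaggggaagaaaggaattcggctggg
The run GCGGGAAA thus stood upstream of E2f7, which rose, of Cdc6 and Gins3, which were not called, and of Brca2, which was called lower in WT. A match is a description of letters and not evidence that a factor binds there.

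In WT cultures, OGD was followed by higher RNA of 16 members, lower RNA of 4, and no call for 29 (limma across all 14235 genes of the table, Benjamini-Hochberg adjusted p under 0.05). Of all genes, 21.6% were called higher and 22.8% lower, so the members' 32.7% higher and 8.16% lower stand beside a background in which much of the transcriptome moved. The median log2 fold change of the members was 0.17, and that of all genes was -0.03. In KO cultures 19 members were called higher and 2 lower, beside 21.0% and 19.9% of all 14375 genes, with a median of 0.33 for the members and 0.0 for all genes. Both genotypes showed higher RNA of Mcm2, Mcm3, Mcm4, Mcm5, Cdt1, Pola1, Prim2, Pcna, Lig1, Rrm1, Uhrf1, Chaf1a and E2f7, and lower RNA of the cyclin E genes Ccne1 and Ccne2. Rfc4, Slbp and Brca1 were called higher in WT, and Gmnn, Prim1, Pole, Rfc3, E2f2 and E2f8 in KO. Tk1 and Brca2 were called lower in WT. No difference between the genotypes in any of these responses passed its own test, as given further on.

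How the libraries were scaled decided how many members counted as higher. Under scaling by the plain library total, which includes the reads of mt-Rnr2, the median of all genes under OGD shifted to -0.29 in WT and -0.27 in KO. Members called higher then numbered 4 in WT (Mcm3, Pola1, Rrm1, E2f7), beside 11.5% of all genes, and 6 in KO (Mcm2, Mcm3, Cdt1, Pola1, Rrm1, Chaf1a), beside 10.4%. Members called lower numbered 10 in WT (Gins3, Gins4, Rfc2, Rfc5, Rpa2, Rpa3, Tk1, Ccne1, Ccne2, Brca2), beside 40.5%, and 5 in KO (Rfc1, Rpa2, Ccne1, Ccne2, Brca2), beside 37.0%. With scaling by the median of ratios 17 were higher and 4 lower in WT (22.2% and 22.0% of all genes) and 19 and 2 in KO (20.6% and 20.4%). The deposited values, with their narrowed spread, gave 22 and 6 in WT (28.2% and 30.0%) and 26 and 3 in KO (28.6% and 27.2%). Mcm3, Pola1 and Rrm1 were therefore higher, and Ccne1 and Ccne2 lower, in both genotypes under each of the 3 scalings tried. Every other member's rise was lost under the library total in at least 1 genotype. Weighting the libraries by their estimated quality also moved the counts: 33 members were then higher and 7 lower in WT, beside 41.8% and 44.7% of all genes, and 36 and 1 in KO, beside 37.6% and 36.0%.

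**Figure D1:**
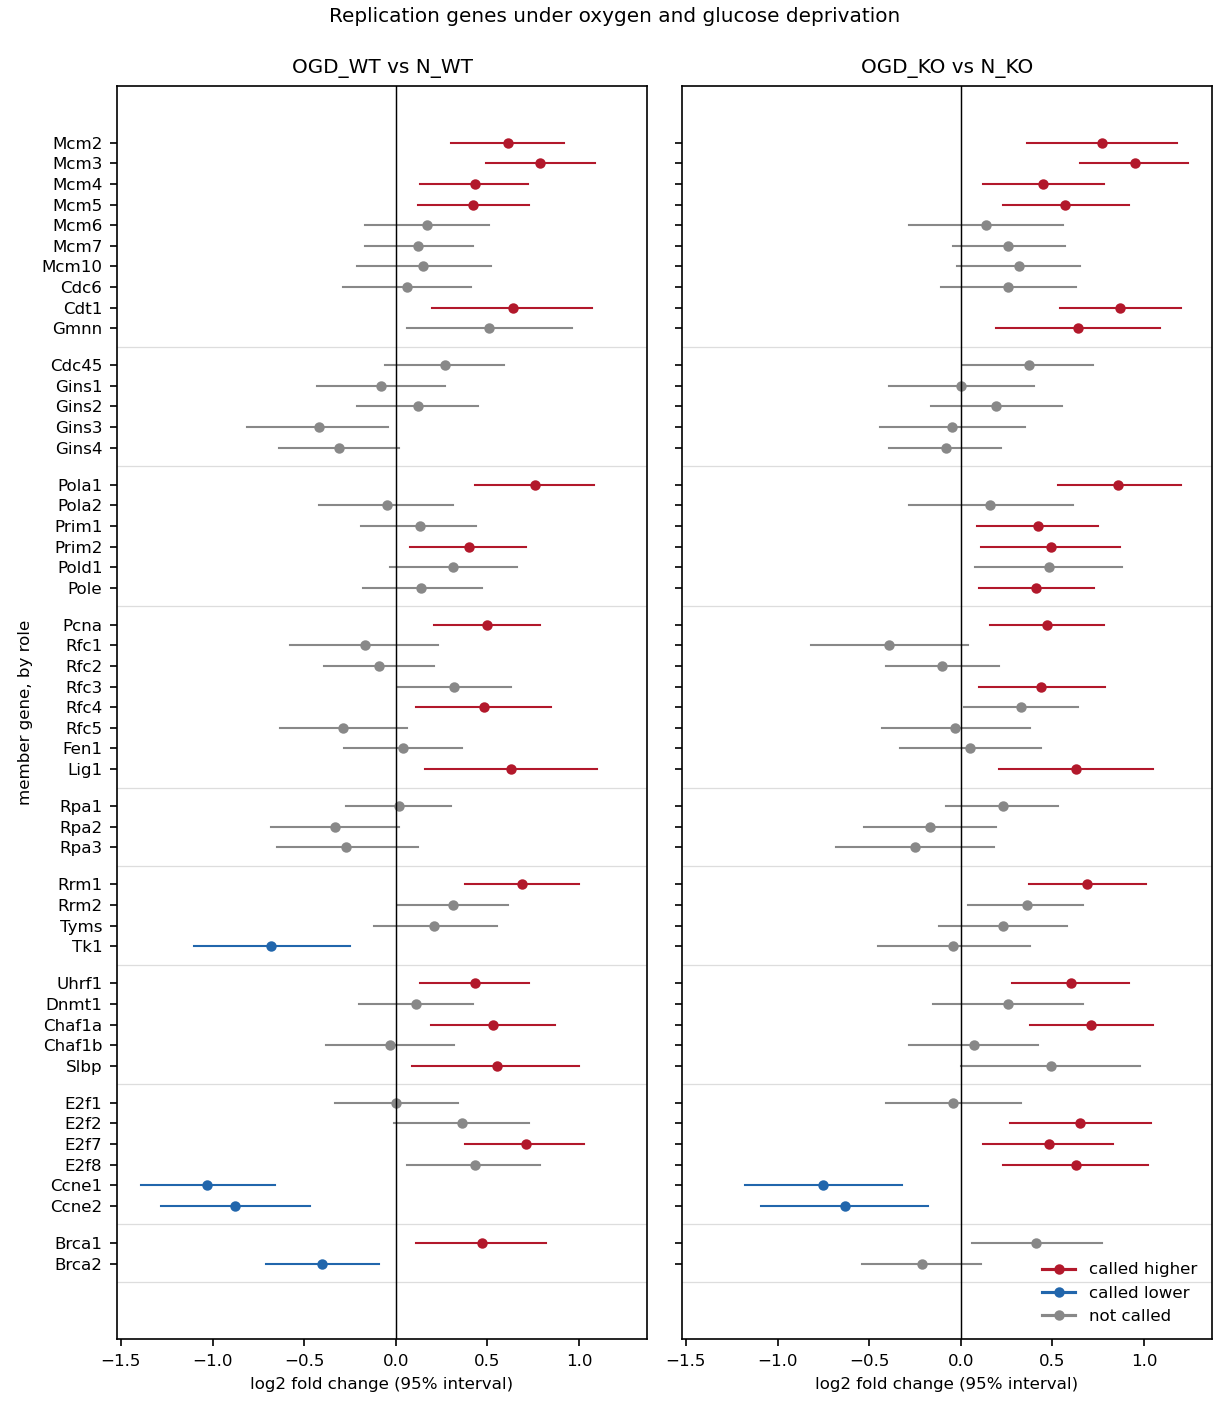
Log2 fold change (x axis) of each of the 49 members (y axis, by role) under OGD in WT (left) and KO (right), with points for estimates, bars for 95% intervals, and red, blue and grey for members called higher, called lower and not called with the authors' scaling. The rises reach 0.79 in WT and 0.95 in KO, both for Mcm3, and the falls reach -1.03 and -0.75, both for Ccne1. Under the library total 4 members in WT and 6 in KO stay called higher, beside 11.5% and 10.4% of all genes.

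The MCM ring and its licensing factors held several of the rises. Of 10 genes, 5 were called higher in WT (Mcm2, Mcm3, Mcm4, Mcm5, Cdt1) and 6 in KO (the same with Gmnn), none lower. This stands beside 21.6% of all genes called higher in WT and 21.0% in KO. The role's medians were 0.42 and 0.51, beside -0.03 and 0.0 for all genes. Under the library total the calls fell to Mcm3 in WT and to Mcm2, Mcm3 and Cdt1 in KO, beside 11.5% and 10.4% of all genes. The medians were then 0.15 and 0.22, beside -0.29 and -0.27 for all genes. Mcm3, a subunit of the ring, measured 4.28, 4.44, 4.13, 3.95 and 4.21 log2 CPM in N_WT and 5.08, 5.21, 5.01, 4.87 and 4.81 in OGD_WT (cultures 1 to 5 in order, here and below). Every OGD_WT library lay above every N_WT library. Its log2 fold change was 0.79 ± 0.14 (SE), a 1.73-fold rise, with a limma adjusted p of 0.000148, and a two-sided exact permutation test gave p = 0.00794, its lower limit for groups of this size. In KO, Mcm3 went from 4.02, 4.29, 4.06, 4.22 and 3.88 in normoxia to 4.95, 4.78, 5.1, 5.21 and 5.18 under OGD, again with no overlap. That rise was 0.95 ± 0.14, or 1.93-fold (limma adjusted p = 3.98e-05).

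Only some of the ring's other subunits were called, and differences in size between subunits were not tested. Mcm2 rose by 0.61 in WT and 0.77 in KO, Mcm4 by 0.43 and 0.45, and Mcm5 by 0.42 and 0.57, while Mcm6 (0.17 and 0.14) and Mcm7 (0.12 and 0.26) were not called in either genotype. The Mcm4 rise in KO did not pass with the culture as a replicate block (limma adjusted p = 0.071), nor did it without any of OGD_KO 3, OGD_KO 4, N_KO 1, N_KO 3 or N_KO 5 (up to 0.0705). In WT it did not pass without N_WT 3 (0.0596), and the Mcm5 rise did not pass without OGD_WT 1, OGD_WT 3 or N_WT 3 (up to 0.0698). Cdt1, the loader of the ring, rose by 0.64 in WT and 0.87 in KO. The WT rise of Cdt1 was not called with the replicate block (0.0629), nor without OGD_WT 2, N_WT 3 or N_WT 4 (up to 0.0635). Gmnn encodes geminin, which binds CDT1 and stops a second round of loading, and it rose by 0.64 in KO, with 0.51 and no call in WT (limma adjusted p = 0.0595). Its KO rise did not pass with the replicate block (0.0779) or without OGD_KO 1, OGD_KO 3 or N_KO 1 (up to 0.0808).

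Cdc6, the partner of Cdt1 in loading, was the member of this role that changed least in WT. It measured 2.4, 2.55, 2.23, 1.85 and 2.12 log2 CPM in N_WT and 2.19, 2.06, 2.28, 2.56 and 2.37 in OGD_WT, and the groups overlapped across nearly their whole range. The difference of 0.06 ± 0.17 had a 95% interval from -0.29 to 0.41. Cdc6 in KO measured 1.82, 2.24, 1.55, 2.16 and 2.04 in normoxia and 2.3, 2.18, 2.52, 1.81 and 2.32 under OGD, a difference of 0.26 with an interval from -0.11 to 0.63. Mcm10, which helps start the loaded helicase, differed by 0.15 in WT and 0.32 in KO without a call.

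The genes that turn the loaded ring into a moving helicase were not called in either genotype. None of the 5 genes Cdc45, Gins1, Gins2, Gins3 and Gins4 passed the test, with medians of -0.08 in WT and 0.0 in KO. Gins3, a GINS subunit, measured 1.51, 2.08, 1.93, 1.46 and 1.61 log2 CPM in N_WT and 1.59, 1.42, 1.07, 1.05 and 1.35 in OGD_WT. It was lower in 4 of 5 cultures, with overlapping groups. The difference was -0.42 ± 0.18 (limma adjusted p = 0.0673, exact permutation p = 0.0317), and it passed without N_WT 4. In KO, Gins3 measured 1.16, 1.72, 1.72, 1.55 and 1.81 in normoxia and 1.85, 1.19, 1.5, 1.9 and 1.29 under OGD, a difference of -0.05 with an interval from -0.44 to 0.35.

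Gins1, another GINS subunit, measured 2.04, 1.55, 1.59, 1.92 and 1.72 log2 CPM in N_WT and 1.77, 1.56, 1.85, 1.5 and 1.74 in OGD_WT. Gins1 in KO measured 1.32, 1.49, 1.77, 1.44 and 2.08 in normoxia and 1.62, 1.96, 1.64, 1.71 and 1.19 under OGD. Neither pair of groups separated, and the differences were -0.08 (interval -0.43 to 0.27) in WT and 0.0 (-0.39 to 0.4) in KO. Cdc45, which joins the ring and GINS, differed by 0.27 and 0.37, Gins2 by 0.12 and 0.19, and Gins4 by -0.31 and -0.08. Under the library total, Gins3 and Gins4 were called lower in WT, as were 40.5% of all genes.

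Among the polymerase and primase genes, the catalytic subunit of polymerase alpha changed most. Of 6 genes, 2 were called higher in WT (Pola1, Prim2) and 4 in KO (Pola1, Prim1, Prim2, Pole), with none lower. Among all genes 21.6% were called higher in WT and 21.0% in KO. Under the library total Pola1 alone was called, in both genotypes, beside 11.5% and 10.4% of all genes called higher. The role's medians of 0.23 and 0.45 became -0.04 and 0.17, while those of all genes went from -0.03 and 0.0 to -0.29 and -0.27. Pola1 measured 4.95, 4.77, 4.82, 4.49 and 5.26 log2 CPM in N_WT and 5.65, 5.93, 5.64, 5.46 and 5.4 in OGD_WT. The lowest OGD value lay above the highest normoxia value. The rise was 0.76 ± 0.16, or 1.69-fold (limma adjusted p = 0.000554, exact permutation p = 0.00794). In KO, Pola1 measured 4.79, 5.07, 4.88, 4.88 and 4.54 in normoxia and 5.61, 5.53, 5.65, 5.48 and 6.21 under OGD, a rise of 0.86 ± 0.16, or 1.82-fold, again with no overlap (limma adjusted p = 0.000307).

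Pola2, the accessory subunit that binds Pola1 in the same complex, was not called in either genotype. It measured 3.42, 3.03, 2.89, 2.91 and 3.67 log2 CPM in N_WT and 3.36, 2.75, 3.32, 3.12 and 3.12 in OGD_WT, with an interval for the difference from -0.42 to 0.31. Pola2 in KO measured 2.61, 2.84, 3.09, 2.73 and 3.86 in normoxia and 3.14, 3.65, 3.31, 3.0 and 2.84 under OGD, a difference of 0.16 (interval -0.28 to 0.61). The groups overlapped in both genotypes.

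The primase genes make the RNA primers that polymerase alpha extends. Prim2, the large primase subunit, rose by 0.4 in WT and 0.49 in KO, and Prim1, the catalytic subunit, by 0.42 in KO, with 0.13 and no call in WT. Pole, the leading strand polymerase, rose by 0.41 in KO and differed by 0.14 in WT. Pold1, the lagging strand polymerase, differed by 0.31 and 0.48 without a call. These smaller rises were the least stable. With the replicate block the limma adjusted p was 0.059 for Prim2 in WT, 0.098 for Prim2 in KO and 0.0827 for Prim1 in KO. Leaving out single libraries ended the call of Prim2 in 6 of 10 fits in WT and 7 in KO, of Prim1 in 8 of 10 and of Pole in 6 of 10.

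The clamp gene was called higher while most genes of its loader were not called. There were 8 genes for the clamp, the clamp loader and the enzymes that finish the lagging strand. Of these 3 were called higher in WT (Pcna, Rfc4, Lig1) and 3 in KO (Pcna, Rfc3, Lig1), with none lower. Among all genes 21.6% were called higher in WT and 21.0% in KO. None of these rises held under the library total, where Rfc2 and Rfc5 in WT and Rfc1 in KO were called lower. With that scaling 40.5% of all genes in WT and 37.0% in KO were called lower. The role's median was then -0.09 in both genotypes, beside -0.29 and -0.27 for all genes. Pcna, the sliding clamp, measured 5.85, 6.08, 5.84, 5.51 and 5.91 log2 CPM in N_WT and 6.29, 6.49, 6.36, 6.2 and 6.36 in OGD_WT. All OGD values exceeded all normoxia values, a rise of 0.5 ± 0.14 or 1.41-fold (limma adjusted p = 0.00656). In KO, Pcna measured 5.91, 6.16, 5.67, 5.5 and 5.93 in normoxia and 6.29, 6.05, 6.41, 6.35 and 6.41 under OGD. There 1 OGD library, culture 2, lay within the normoxia range, and the rise of 0.47 ± 0.15 (limma adjusted p = 0.0172) did not pass without OGD_KO 3 or N_KO 3 (up to 0.0577).

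Lig1, the ligase that seals lagging strand fragments, measured 5.33, 5.24, 4.97, 4.92 and 5.13 log2 CPM in N_WT and 5.85, 6.14, 5.95, 6.22 and 4.56 in OGD_WT. The 4 first OGD libraries lay above all normoxia libraries and OGD_WT 5 below all of them. With all libraries the rise was 0.63 ± 0.23 (limma adjusted p = 0.029, exact permutation p = 0.0714). Without OGD_WT 5 it was 0.92 (adjusted p = 7.96e-06). The call was lost without any of OGD_WT 1 to 4, N_WT 3 or N_WT 4 (up to 0.105) and with the replicate block (0.0513). In KO, Lig1 measured 4.91, 5.7, 5.02, 5.21 and 4.36 in normoxia and 5.58, 6.09, 5.71, 5.4 and 5.57 under OGD. It was higher under OGD in 5 of 5 cultures though the groups overlapped, with a rise of 0.63 ± 0.20 (limma adjusted p = 0.0171) that did not pass without OGD_KO 2 (0.0542).

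Fen1, the nuclease that trims lagging strand flaps before ligation, measured 3.6, 3.4, 3.29, 3.19 and 3.14 log2 CPM in N_WT and 3.44, 3.69, 3.33, 3.1 and 3.27 in OGD_WT. Fen1 in KO measured 3.0, 3.52, 3.19, 3.75 and 2.95 in normoxia and 3.21, 2.89, 3.46, 3.42 and 3.71 under OGD. The groups overlapped in both genotypes, with differences of 0.04 (interval -0.28 to 0.36) and 0.05 (-0.33 to 0.44). Among the clamp loader genes, Rfc4 rose by 0.48 in WT and differed by 0.33 in KO, and Rfc3 rose by 0.44 in KO and differed by 0.32 in WT. The limma adjusted p with the replicate block was 0.0755 for Rfc4 in WT and 0.0943 for Rfc3 in KO, and leaving out single libraries ended the call in 7 and 8 of 10 fits. Rfc1, the large loader subunit, differed by -0.17 and -0.39, Rfc2 by -0.09 and -0.1, and Rfc5 by -0.29 and -0.03, all without a call.

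The genes of replication protein A, which coats exposed single strands, were not called. Rpa2 measured 3.15, 3.33, 3.18, 3.16 and 3.76 log2 CPM in N_WT and 3.08, 3.23, 3.13, 2.56 and 2.93 in OGD_WT. It was lower under OGD in all 5 cultures by amounts that left the groups overlapping, with a difference of -0.33 ± 0.17 (limma adjusted p = 0.112, exact permutation p = 0.0635). Rpa2 in KO measured 3.27, 3.24, 2.83, 3.07 and 3.37 in normoxia and 2.95, 2.43, 3.21, 3.18 and 3.15 under OGD, a difference of -0.17. Rpa1, the large subunit, measured 4.7, 4.45, 4.51, 4.71 and 4.4 in N_WT and 4.62, 4.38, 4.58, 4.53 and 4.74 in OGD_WT. Rpa1 in KO measured 4.39, 4.74, 4.46, 4.07 and 4.62 in normoxia and 4.6, 4.6, 4.74, 4.82 and 4.67 under OGD. The Rpa1 groups overlapped, with differences of 0.02 (interval -0.27 to 0.3) and 0.23 (-0.08 to 0.53). Rpa3 differed by -0.27 and -0.25. Under the library total, Rpa2 was called lower in both genotypes and Rpa3 in WT. So were 40.5% of all genes in WT and 37.0% in KO.

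The 4 enzymes that supply deoxynucleotides moved in different directions in WT, where Rrm1 rose, Tk1 fell and Rrm2 and Tyms were not called. Rrm1, the large subunit of ribonucleotide reductase, measured 6.02, 5.96, 5.94, 5.62 and 6.13 log2 CPM in N_WT and 6.62, 7.01, 6.58, 6.53 and 6.41 in OGD_WT. The groups did not overlap, and the rise was 0.69 ± 0.15, or 1.62-fold (limma adjusted p = 0.000752, exact permutation p = 0.00794). In KO, Rrm1 went from 5.91, 6.16, 5.83, 6.02 and 5.74 to 6.56, 6.19, 6.72, 6.82 and 6.83, also without overlap and by the same 0.69 ± 0.15 (limma adjusted p = 0.00144). Rrm2, the small subunit of the same enzyme, differed by 0.31 in WT and 0.36 in KO and was not called (limma adjusted p = 0.0838 and 0.0665).

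Tk1, the cytosolic thymidine kinase, measured 1.8, 2.15, 1.77, 1.65 and 2.12 log2 CPM in N_WT and 1.5, 1.61, 1.35, 1.14 and 0.51 in OGD_WT. Every OGD_WT library lay below every N_WT library, with OGD_WT 5 the lowest. Tk1 fell by 0.68 on the log2 scale (SE 0.20, limma adjusted p = 0.0102), and without OGD_WT 5 the change was -0.5 and still called (0.032). Tk1 in KO measured 1.67, 1.56, 1.22, 2.32 and 1.5 in normoxia and 1.44, 1.42, 1.94, 1.65 and 1.64 under OGD, which overlapped, with a difference of -0.04 (interval -0.45 to 0.38). Tk1 rested on few reads, 10 to 59 per library. Tyms, which makes thymidylate, measured 3.54, 3.53, 3.35, 3.0 and 3.43 in N_WT and 3.76, 3.75, 3.65, 3.63 and 3.14 in OGD_WT, where only OGD_WT 5 was below the highest normoxia library. Tyms in KO measured 3.22, 3.11, 3.11, 3.63 and 3.46 in normoxia and 3.33, 3.49, 3.71, 3.96 and 3.2 under OGD. The differences of 0.21 (interval -0.12 to 0.55) and 0.23 (-0.12 to 0.58) were not called.

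**Figure D2:**
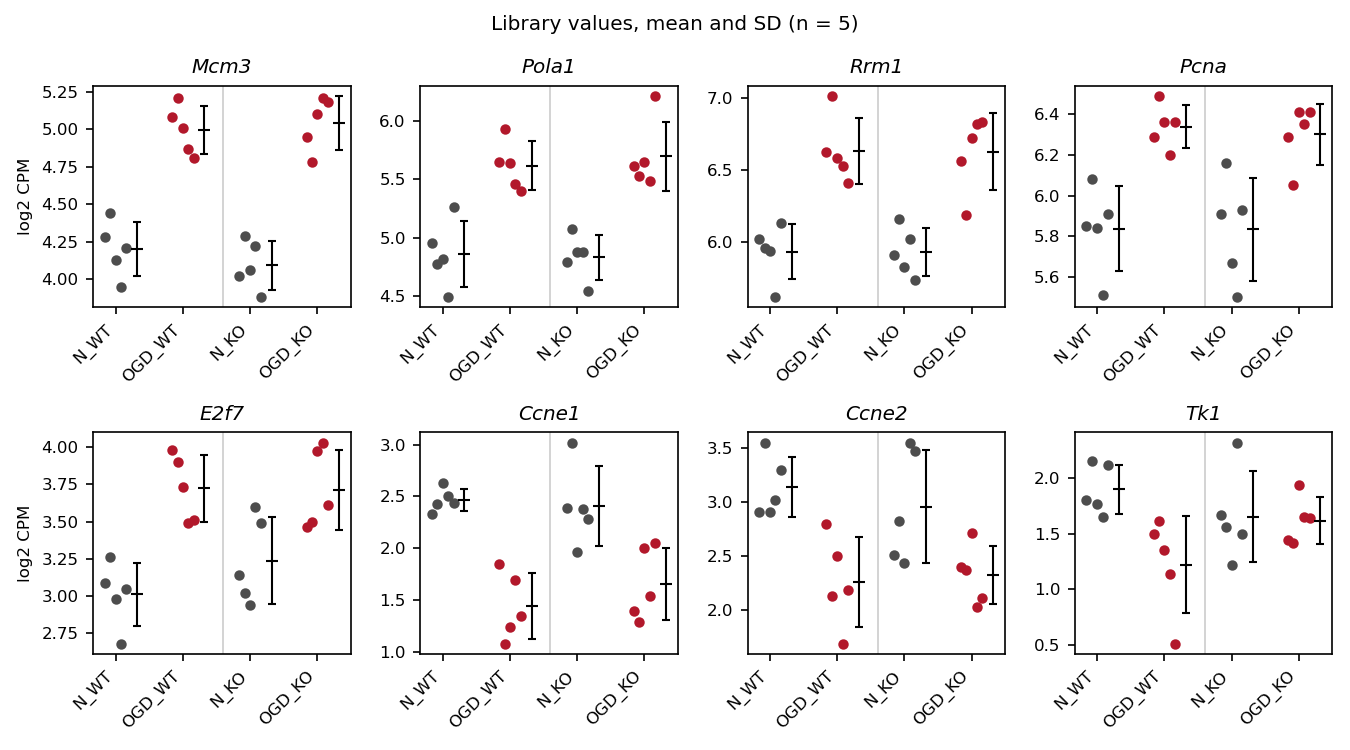
Log2 CPM (y axis) of 8 members in each library of the 4 groups (x axis), with grey points for normoxia, red points for OGD, libraries in culture order, and the mean and SD of each 5 libraries at the right. Mcm3, Pola1 and Rrm1 show no overlap between normoxia and OGD in either genotype and stay called under each scaling, Ccne1 lies lower under OGD without overlap in WT, and Tk1 separates in WT and overlaps in KO.

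Of the 5 genes that copy chromatin and its marks, 3 were called higher in WT (Uhrf1, Chaf1a, Slbp) and 2 in KO (Uhrf1, Chaf1a), with none lower. Among all genes 21.6% were called higher in WT and 21.0% in KO. Under the library total Chaf1a in KO was the only call, beside 11.5% of all genes called higher in WT and 10.4% in KO. The role's medians were then 0.15 and 0.2, beside -0.29 and -0.27 for all genes. Chaf1a, the large subunit of chromatin assembly factor 1, rose by 0.53 in WT and 0.71 in KO. Chaf1b, its partner subunit, measured 2.33, 2.58, 2.35, 1.92 and 2.54 log2 CPM in N_WT and 2.63, 2.3, 2.33, 2.17 and 2.16 in OGD_WT. Chaf1b in KO measured 2.05, 2.09, 2.34, 2.82 and 2.4 in normoxia and 2.34, 2.37, 2.42, 2.26 and 2.66 under OGD. The groups overlapped, and the differences of -0.03 (interval -0.38 to 0.32) and 0.07 (-0.28 to 0.42) were not called.

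Slbp, which binds the stem-loop of replication-dependent histone mRNAs, measured 5.51, 4.68, 5.21, 5.07 and 5.77 log2 CPM in N_WT and 5.72, 6.48, 5.76, 6.0 and 5.01 in OGD_WT. The groups overlapped, since OGD_WT 5 lay below 4 normoxia libraries. The rise of 0.55 ± 0.22 was called at a limma adjusted p of 0.0493 with an exact permutation p of 0.111, was lost in 7 of 10 fits that left out a library, and had an adjusted p of 0.149 with the replicate block. In KO, Slbp measured 5.19, 5.46, 5.21, 5.56 and 4.14 in normoxia and 5.42, 5.76, 5.63, 5.06 and 6.14 under OGD, a difference of 0.49 that was not called. Uhrf1, which reads hemimethylated DNA behind the fork and recruits DNMT1, rose by 0.43 in WT and 0.6 in KO. The WT rise did not pass without OGD_WT 1, OGD_WT 3, N_WT 3 or N_WT 4 (up to 0.0614). Dnmt1 itself, the maintenance DNA methyltransferase, differed by 0.11 and 0.26 without a call.

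The cell cycle regulators held the largest falls. Ccne1 and Ccne2 encode the cyclins E that activate CDK2 at the start of S phase, and both were called lower under OGD in both genotypes. With library weights neither was called in KO, where Ccne1 changed by -0.2 (limma adjusted p = 0.18) and Ccne2 by 0.08 (0.554). Ccne1 measured 2.33, 2.43, 2.63, 2.5 and 2.44 log2 CPM in N_WT and 1.85, 1.08, 1.24, 1.69 and 1.35 in OGD_WT. No OGD_WT library reached the lowest N_WT library. The change was -1.03 ± 0.18, a ratio of 0.491 (limma adjusted p = 8e-05, exact permutation p = 0.00794). In KO, Ccne1 measured 2.39, 3.02, 1.96, 2.38 and 2.28 in normoxia and 1.4, 1.29, 2.0, 1.54 and 2.05 under OGD, a change of -0.75 ± 0.21 with overlap around N_KO 3 (limma adjusted p = 0.00688). Ccne2 measured 2.91, 3.55, 2.91, 3.02 and 3.3 in N_WT and 2.8, 2.13, 2.5, 1.69 and 2.19 in OGD_WT, without overlap, a change of -0.88 ± 0.19 (limma adjusted p = 0.00102). In KO it went from 2.51, 2.82, 2.44, 3.55 and 3.47 to 2.4, 2.37, 2.71, 2.03 and 2.11, a change of -0.63 ± 0.22 (limma adjusted p = 0.0252). That change was not called with the replicate block (0.0776) or without OGD_KO 4, N_KO 4 or N_KO 5 (up to 0.0836).

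The E2F genes did not move as 1 block. E2f1, an activator of S-phase genes, measured 3.36, 2.98, 2.98, 2.76 and 2.6 log2 CPM in N_WT and 2.97, 3.04, 2.89, 2.76 and 3.04 in OGD_WT, and the means were equal at 2.94. E2f1 in KO measured 2.65, 2.73, 2.85, 2.49 and 2.92 in normoxia and 2.28, 2.69, 2.66, 3.27 and 2.54 under OGD, a difference of -0.04 (interval -0.41 to 0.33). E2f2, also an activator, rose by 0.65 in KO and differed by 0.36 in WT without a call. E2f7 and E2f8 encode repressors that shut S-phase genes down again. E2f7 rose in WT from 3.09, 3.26, 2.98, 2.68 and 3.05 to 3.98, 3.9, 3.73, 3.49 and 3.51 without overlap, by 0.71 ± 0.16 (limma adjusted p = 0.00102), and in KO by 0.48 ± 0.17 (0.0315). The KO rise of E2f7 did not pass without OGD_KO 3, OGD_KO 4, N_KO 1, N_KO 2 or N_KO 3 (up to 0.0993). E2f8 rose by 0.63 in KO, and in WT its difference of 0.43 had a limma adjusted p of 0.0517, or 0.0489 with the replicate block. Under the library total E2f7 stayed called in WT only, E2f2 and E2f8 in neither genotype, and both cyclin E genes stayed lower in both.

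The 2 recombination genes, which protect stalled forks and repair broken ones, parted in WT. Brca1 measured 3.98, 4.26, 3.85, 3.81 and 4.17 log2 CPM in N_WT and 4.88, 4.74, 4.57, 4.28 and 3.95 in OGD_WT. It was higher in 4 of 5 cultures with overlapping groups, a rise of 0.47 ± 0.17 (limma adjusted p = 0.0318, exact permutation p = 0.0476). Brca2, which acts in homologous recombination, measured 4.92, 5.2, 5.23, 5.43 and 5.45 in N_WT and 5.15, 4.61, 4.88, 4.87 and 4.72 in OGD_WT. It was lower in 4 of 5 cultures, also with overlap, a change of -0.4 ± 0.15 (limma adjusted p = 0.0349, exact permutation p = 0.0159). Each call was lost in 6 of 10 fits that left out a library and with the replicate block (0.0501 for Brca1 and 0.0671 for Brca2), and that of Brca1 also under the library total. In KO, Brca1 measured 3.75, 4.41, 3.87, 4.33 and 4.07 in normoxia and 4.38, 4.1, 4.73, 4.79 and 4.48 under OGD, a difference of 0.41 (limma adjusted p = 0.0569). Brca2 in KO measured 4.93, 4.98, 5.13, 5.2 and 5.38 in normoxia and 5.04, 4.67, 4.94, 5.3 and 4.62 under OGD. That difference of -0.21 was not called. Under the library total Brca2 was called lower in KO (-0.5), as were 37.0% of all genes.

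How the members held up was read from the separation of the libraries and from fits that left out a library. In WT the groups did not overlap for 9 of 49 members higher under OGD and 3 lower, beside 13.9% and 13.1% of all genes. In KO this held for 5 of 49 higher and 0 lower, beside 13.4% and 12.4%. The members' share was a little above that of all genes for rises in WT. It was below it for falls in WT and for both directions in KO. Leaving out each library in turn, 7 of the 16 rises in WT were called in all 10 fits (Mcm2, Mcm3, Pola1, Pcna, Rrm1, Chaf1a, E2f7), as were 3 of the 4 falls (Tk1, Ccne1, Ccne2). In KO 10 of 19 rises were (Mcm2, Mcm3, Mcm5, Cdt1, Pola1, Rrm1, Uhrf1, Chaf1a, E2f2, E2f8), and the fall of Ccne1. The count of members higher in WT was 7 without N_WT 3, 9 without OGD_WT 1, 9 without OGD_WT 3 and 10 without N_WT 4. In KO it was 11 without OGD_KO 3, 12 without N_KO 1 and 12 without N_KO 3, and the count lower was 1 without OGD_KO 4, N_KO 4 or N_KO 5. With the replicate block the counts were 11 higher and 3 lower in WT (22.4% and 6.12%) and 14 higher and 1 lower in KO (28.6% and 2.04%). The share of all genes called was not taken for the replicate block or for the fits that left out a library. These counts therefore show how single calls held and do not set the members apart from other genes.

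The members' change also differed from culture to culture. The median over the 49 members of OGD minus normoxia was 0.23, 0.26, 0.29, 0.32 and -0.06 in WT cultures 1 to 5, and 0.3, -0.1, 0.57, 0.33 and 0.46 in KO cultures 1 to 5. WT 5 and KO 2 were thus the cultures in which fewer members were higher than lower (23 against 26 and 19 against 30). Both carry the batch label 3.1, as does KO 4, which had 35 members higher. Within the 4 WT cultures whose batch label begins with 3, 9 members were called higher and 4 lower, beside 16.8% and 17.7% of all genes, and within the 3 such KO cultures 3 were called higher (Mcm3, Cdt1, Pola1) and 2 lower (Ccne1, Ccne2), beside 8.28% and 8.01%. The members' shares there are near or below those of all genes. In those cultures Mcm3 rose by 0.79 in WT and 0.92 in KO, and Ccne1 changed by -1.16 and -0.94. The remaining batches held 1 culture of a genotype each and gave no test.

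**Figure D3:**
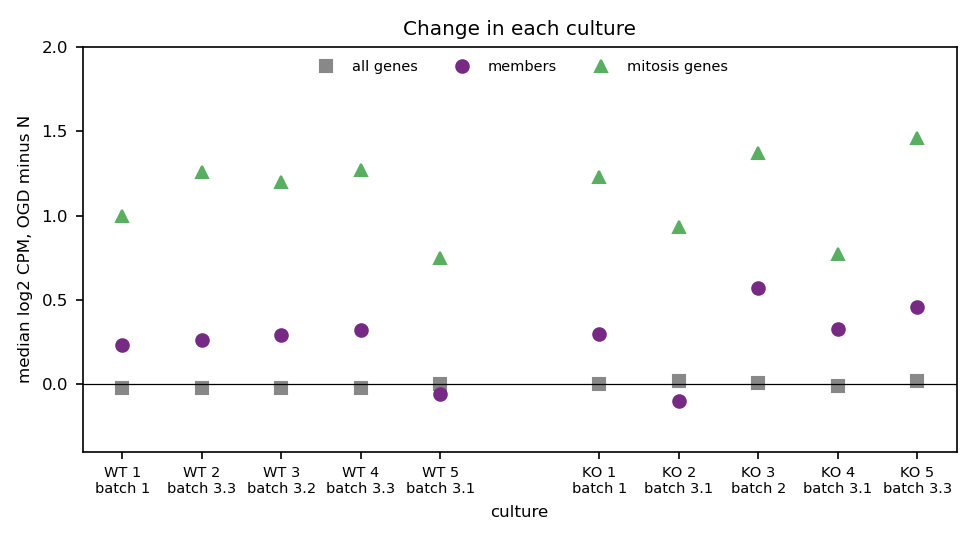
Median difference in log2 CPM between the OGD and normoxia library (y axis) of each culture (x axis, with its batch label) over all genes (squares), the 49 members (circles) and 30 mitosis genes (triangles), with the authors' scaling. Circles lie above the squares in 8 of 10 cultures and below in WT 5 (-0.06) and KO 2 (-0.1), and triangles lie above circles in every culture.

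Mitosis genes, which act after S phase, rose more widely than the replication genes. Of 30, 28 were called higher in each genotype (93.3%) and none lower, beside 21.6% of all genes higher in WT and 21.0% in KO. Their medians were 1.12 in WT and 1.13 in KO. Under the library total 27 were called higher in each genotype, beside 11.5% and 10.4% of all genes. The 3 with the largest called change in WT were Anln, a cytokinesis scaffold (1.72 in WT and 1.78 in KO), Aurka, a spindle kinase (1.66 and 1.54), and Ccnb1, the mitotic cyclin B1 (1.49 and 1.58). Culture by culture, the median over mitosis genes ranged from 0.75 to 1.27 in WT and from 0.77 to 1.46 in KO, above the members' median each time. No member reached the mitosis median in either genotype. The 2 lists were not tested against each other.

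Other genes of the replication pathway moved both ways. Of 45 further replication genes, 12 were called higher and 8 lower in WT (26.7% and 17.8%), near the 21.6% and 22.8% of all genes. In KO 16 and 6 were called (35.6% and 13.3%), beside 21.0% and 19.9%. Their medians of 0.23 and 0.22 became -0.04 and -0.06 under the library total, where those of all genes were -0.29 and -0.27. Mtbp and Dbf4, which help fire licensed origins, rose by 1.26 and 1.07 in WT and by 1.55 and 1.11 in KO. Rrm2b, the p53-inducible small subunit of ribonucleotide reductase, changed by -1.21 in WT and -0.92 in KO, while the large subunit Rrm1 rose. Of 32 genes of G1 to S control, 12 rose and 4 fell in WT (37.5% and 12.5%) and 11 rose and 1 fell in KO (34.4% and 3.12%), beside the same shares of all genes. Their medians of 0.25 and 0.27 became -0.03 and 0.0 under the library total. Among them E2f5, a repressor E2F, rose by 1.03 and 0.91, Ccna2, the S and G2 cyclin A, by 0.97 and 1.02, and Cdkn1b, the CDK inhibitor p27, by 0.84 and 0.86. Cyclin A RNA was therefore higher and cyclin E RNA lower in the same libraries.

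Of 35 genes of the replication checkpoint and fork repair, 12 rose in each genotype (34.3%), beside 21.6% of all genes in WT and 21.0% in KO. In WT 4 fell (11.4%) and in KO 1 (2.86%), beside 22.8% and 19.9%. Their medians of 0.18 and 0.34 became -0.08 and 0.08 under the library total, beside -0.29 and -0.27 for all genes. Wee1, the kinase that holds back CDK1, rose by 1.27 in WT and 1.14 in KO, and Xrcc2, a gene of homologous recombination, by 1.05 and 0.82. The genes named from these lists, and those named from the mitosis list, were all called in both genotypes with the authors' scaling, and each call held in all 10 fits that left out a library. In KO the rise of Xrcc2 was not called under the library total. In batch 3 cultures only, neither Xrcc2 nor Cdkn1b was called in KO.

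**Figure D4:**
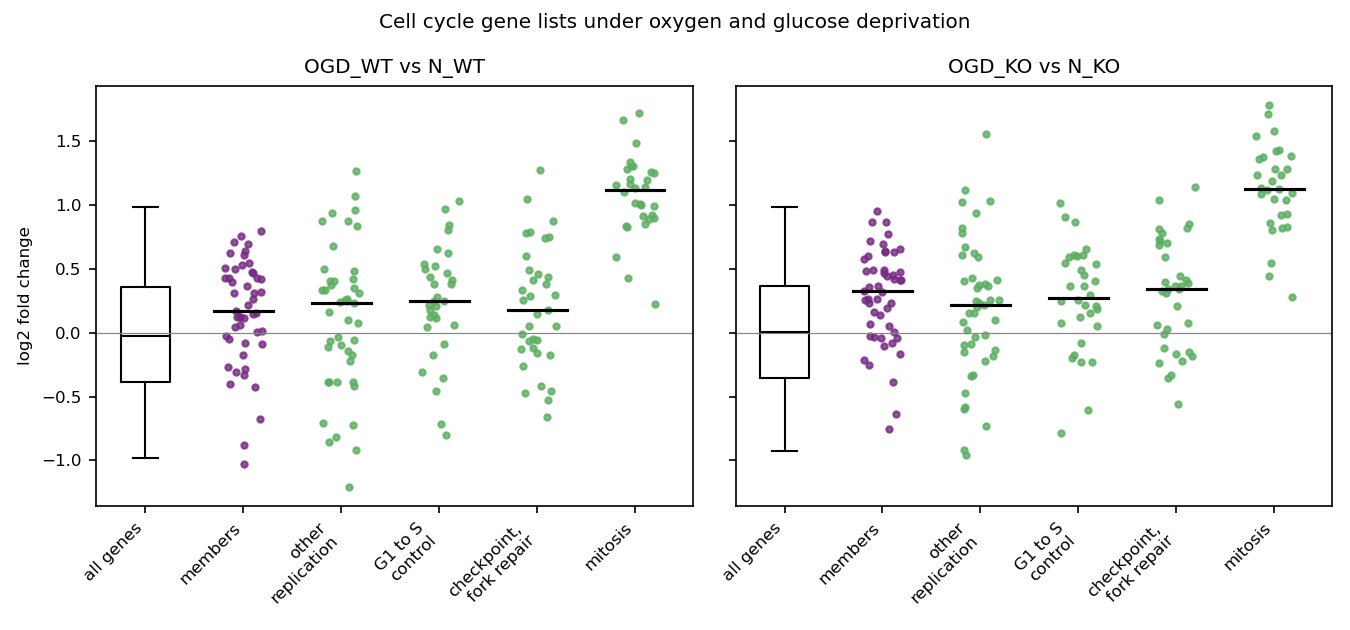
Log2 fold change under OGD (y axis) in WT (left) and KO (right) of all genes (box: quartiles and median, whiskers: 5th to 95th percentile) and, as points with a line at the median, of the 49 members and 4 lists of other cell cycle genes (x axis), with the authors' scaling. The members' medians are 0.17 and 0.33 and those of the mitosis genes 1.12 and 1.13. Under the library total these are -0.11, 0.05, 0.86 and 0.84, beside -0.29 and -0.27 for all genes.

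Cell type markers moved in the same comparisons. Of 13 neuronal markers, 6 were called lower in WT (46.2%) and 7 in KO (53.8%), beside 22.8% and 19.9% of all genes, and none higher. Their summed level was 6200 to 7560 CPM in N_WT, 3990 to 6830 in OGD_WT, 6520 to 6860 in N_KO and 4180 to 5540 in OGD_KO. Of 13 markers of radial glia and neural progenitors, 6 were called higher in each genotype (46.2%), beside 21.6% of all genes in WT and 21.0% in KO. Of these markers 1, Eomes, was called lower in WT. Their sum was 1250 to 1750 CPM in N_WT, 2130 to 2960 in OGD_WT, 1300 to 1710 in N_KO and 2160 to 2510 in OGD_KO. Neurog2, a proneural factor, had the largest rise (2.62 in WT and 2.41 in KO). Under the library total the called neuronal markers stayed lower. The progenitor median stayed above 0, at 0.29 in WT and 0.12 in KO, beside -0.29 and -0.27 for all genes. Their part in the members' changes was not tested.

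Glial markers were present in every library. Of 7 astrocyte markers analysed, 4 were called higher and 1, Gfap, lower in WT, and 3 higher in KO, with sums of 668 to 893 CPM in N_WT, 954 to 1160 in OGD_WT, 513 to 1090 in N_KO and 629 to 1320 in OGD_KO. Of 6 oligodendrocyte precursor markers, 1 was called higher and 1 lower in WT and 3 higher in KO, with sums of 272 to 347, 315 to 473, 195 to 389 and 260 to 385 CPM in the same order. The 3 oligodendrocyte markers analysed summed to 16.4 to 29.1 CPM, with 2 called lower in WT and none in KO. Vascular and meningeal markers summed to 6.12 to 12.2 CPM over the 3 analysed in WT and the 5 in KO, with Kdr higher in both and Pdgfrb lower in WT. These glial and vascular calls are those of the authors' scaling. With it, 21.6% of all genes were called higher and 22.8% lower in WT, and 21.0% and 19.9% in KO. Under the library total the astrocyte medians were 0.32 and 0.28, beside -0.29 and -0.27 for all genes, and Gfap was lower in both genotypes.

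Members called higher stood both among those with and among those without E2F letters. Of the 16 members with such letters, 7 were called higher and 1 lower in WT, with a median of 0.34 and a range from -0.42 to 0.79, and 9 higher and 0 lower in KO, with a median of 0.48. Of the 24 with a window and no such letters, 7 were higher and 2 lower in WT, with a median of 0.14, and 6 higher and 1 lower in KO, with a median of 0.28. These counts use the authors' scaling, with which 21.6% of all genes were higher and 22.8% lower in WT, and 21.0% and 19.9% in KO. For rises, the set without letters was near the share of all genes, and for falls both sets were below it. Medians of both sets lay above those of all genes, -0.03 in WT and 0.0 in KO. The difference between the 2 sets was not tested. Across the 49 members, fold change and length of the longest annotated transcript had a Spearman rho of 0.2 in WT and 0.21 in KO (Pearson 0.19 and 0.22), and over all genes of -0.04 and -0.06. These are descriptions across genes, which are not independent replicates.

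No member was called between genotypes with equal library weights. In normoxia, 0 of 49 members were called between KO and WT by limma, beside 0.0353% of 14152 genes, and 1 had an unadjusted p under 0.05, beside 1.81%. That 1 was E2f8, with values of 2.99 to 3.67 in N_KO and 3.27 to 4.0 in N_WT on the scale of the OGD tables. Its difference in the genotype table was -0.37 (interval -0.72 to -0.03, unadjusted limma p = 0.0365, exact permutation p = 0.0794, adjusted p = 1.0). Under OGD, 0 members were called, beside 0.0282% of 14185 genes, and 0 had an unadjusted p under 0.05, beside 1.78%. The fitted differences ran from -0.37 (E2f8) to 0.26 (E2f7) in normoxia and from -0.24 (E2f1) to 0.41 (Tk1) under OGD. The 95% intervals, which are not adjusted over genes, had a median half-width of 0.34 and 0.36, and 0.54 (Gmnn) and 0.53 (Lig1) at the widest. Calls were adjusted over all genes. Differences of this size or smaller could therefore go uncalled, as that of E2f8 in normoxia (-0.37) did. With library weights 0 members were higher and 5 lower in N_KO, beside 2.96% and 3.58% of all genes, and 13 were higher and 4 lower in OGD_KO, beside 18.1% and 15.4%.

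The difference between the OGD responses of KO and WT was fitted over all 20 libraries and 13688 genes, with the culture as a random block. It was called for 0 members and for 0.0% of genes (0 genes), and 0 members and 0.716% of genes had an unadjusted limma p under 0.05. The largest fitted difference was that of Tk1, 0.69 ± 0.35 (interval -0.02 to 1.4, unadjusted p = 0.057), the gene that was called lower in WT and not in KO. For Mcm3 it was 0.14 (-0.29 to 0.57), for Pola1 0.09 (-0.41 to 0.58), for Rrm1 -0.02 (-0.48 to 0.44), for Ccne1 0.27 (-0.36 to 0.91) and for Ccne2 0.23 (-0.46 to 0.93). The median half-width of these intervals was 0.55, wider than most of the OGD changes themselves, so calls made in 1 genotype alone are not shown to differ between genotypes.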

How the data were processed

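Total RNA of 20 libraries (4 groups of 5) was sequenced with a stranded total RNA kit, per the labels' protocols. The authors deposited 4 tables of log2 CPM, each of 10 libraries and 14152 to 14375 genes. The submitters' processing notes name the build mm10, and the aligner, counter, annotation and scaling are not given in the sources used here. In the deposited values the lowest and the highest library of each gene and group appear to have been pulled in to the 10th and 90th percentile, which narrows the spread. No label states this step, and it was inferred from the values. It was undone with the weights 0.6 and 0.4: at least 99.91% of low values (up to 500 reads) were then whole reads within 0.05, against 45.5% to 92.8% as deposited, and all 49 members had the same reads in different tables for 20 of 20 library and table pairs. The tests used the undone values with the authors' own scaling and a prior count of 3.56 to 4.96 read from the values. Reads per library ranged from 7071506 to 16658619.

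Each comparison was fitted with limma 3.58.1 (lmFit, eBayes with trend) in R 4.3.3 over its whole table, two-sided, with Benjamini-Hochberg adjustment and calls under 0.05. The interaction used recovered reads of all libraries with a prior count of 2 and the culture as a random block. Scripts were tested on simulated data. Members and gene lists were chosen with earlier results of these data known, so no p was adjusted over a list and no list was tested. The members described with every library were, by rule, those with the largest and smallest change in WT in each role, with Pcna, Tk1, Ccne2 and E2f7 added after their values were seen. From each other list up to 3 called genes with the largest change in WT were named, and some results are not reported here.

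The labels pair normoxia and OGD libraries through a shared culture number and batch, but same-numbered libraries did not deviate together (correlations -0.79 to 0.06), so the fit with the replicate block is an alternative. Alternatives were 2 other scalings, the deposited values, limma voom, a prior count of 0.5, a minimum mean of 1 log2 CPM, library weights, batch 3 cultures only and leaving out each library. Nothing says whether cultures of a genotype came from separate animals, so p-values measure the spread between these cultures.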

Additional observations from a re-analysis of the deposited data

Results flagged for a closer look

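In 7 of 196 groups of 5 libraries, the lowest or highest library stood apart from the other 4 by more of the group's range than Dixon's 95% criterion allows, where chance alone would give about 9.8. In log2 CPM, OGD_WT 5 was low for Lig1 (4.56, others 5.85 to 6.22), Tyms (3.14, others 3.63 to 3.76) and Chaf1a (4.47, others 4.91 to 5.02). Without it their changes under OGD in WT were 0.92, 0.33 and 0.63, in place of 0.63, 0.21 and 0.53. OGD_WT 2 was low for Gmnn (0.71, others 1.14 to 1.29), which was called higher in WT without that library (0.61, limma adjusted p = 0.0325). OGD_WT 4 was low for Rfc5 (2.71, others 3.36 to 3.56), whose change of -0.29 was -0.14 without it. OGD_KO 5 was high for Pola1 (6.21, others 5.48 to 5.65), and the rise in KO was 0.73 without it in place of 0.86. N_KO 5 was low for Slbp (4.14, others 5.19 to 5.56), and the difference of 0.49 in KO was 0.25 without it.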

How the results depend on the processing

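Scaling, library weights and the choice of cultures each moved the counts. Under scaling by the library total the members called higher and lower were 4 and 10 in WT, beside 11.5% and 40.5% of all genes, with a median of -0.11. In KO they were 6 and 5, beside 10.4% and 37.0%, with a median of 0.05. The members' median relative to that of all genes was 0.2 in WT and 0.32 in KO as reported. It was 0.18 and 0.32 under the library total, and 0.31 and 0.49 with library weights. Library weights gave 33 higher and 7 lower in WT, beside 41.8% and 44.7% of all genes, and 36 and 1 in KO, beside 37.6% and 36.0%. Between genotypes they gave 5 members lower in KO normoxia, beside 3.58% of all genes. Under OGD they gave 13 higher and 4 lower in KO, beside 18.1% and 15.4%. With them the sign turned for Gins1 (0.23) and Pola2 (0.4) in WT, Tk1 (0.5) and Ccne2 (0.08) in KO, and Cdc6 (0.21) and Aurka (0.32) between genotypes under OGD; the cause was not tested. Batch 3 cultures, fewer samples, gave 9 higher in WT and 3 in KO, beside 16.8% and 8.28% of all genes. With the replicate block, 11 members were higher and 3 lower in WT, and 14 higher and 1 lower in KO, and no genotype call changed. Leaving out 1 library gave 7 to 18 higher and 3 to 4 lower in WT and 11 to 20 higher and 1 to 3 lower in KO, with medians from 0.13 to 0.27 and from 0.29 to 0.38. The share of all genes called was not taken for the replicate block or for leaving out 1 library. Between genotypes and in the interaction no member was called under any other alternative run. Depth limits genes of low count, such as Gmnn at 4 to 31 reads.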
